A study of Arabidopsis thaliana with 4 samples.

Results

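The genes described here are 10 components of pattern-triggered immunity in Arabidopsis thaliana: the receptors FLS2, EFR, CERK1, LYK5 and PEPR1, the partner kinases BAK1, SOBIR1 and BIK1, the oxidase RBOHD and the response gene FRK1. They were taken by gene identifier from a list of pathway genes drawn up with earlier results of these data known, and each of the 10 was found in 1 annotated model of the 32122 annotated models and 36251 models in the table. The samples were wild-type seedlings of the Columbia accession, 2 weeks old, grown in soil at 22 °C under long days, from 2 lines propagated apart. The labels call these lines SALK Col-0 and, for the other stock, Another Col-0. Each line had 2 biological replicates, sequenced as single-end reads of 101 nt. No pathogen, elicitor or other treatment is given in the labels for any of the 4 libraries, so the values are levels in plants with no labelled challenge. The comparison is between the lines, with each gene's level read in every library.

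Plants sense conserved molecules of microbes, and peptides that their own damaged cells release, with receptors at the cell surface. The receptor recruits a co-receptor kinase when its ligand binds, and the complex activates cytoplasmic kinases, which in turn act on an oxidase that makes reactive oxygen outside the cell. Calcium-dependent kinases and MAP kinase cascades then switch on early response genes, many of them through WRKY transcription factors.

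The unit throughout is FPKM, which is scaled by transcript length, so levels can be set beside each other between genes. Libraries were alike in the number of annotated models listed above 0 (22495 to 22822) and in their median level (15.2 to 15.6 FPKM, over those at 1 FPKM or more). They were not alike in their sums of FPKM, which were larger for replicate 1 of each line. Replicate 1 summed to 1762918 FPKM for the SALK line and to 1590250 FPKM for the other stock. Replicate 2 summed to 1076877 FPKM for the SALK line and to 1228118 FPKM for the other stock. Over all 20634 models tested, replicates 1 and 2 summed to 1760920 and 1074200 FPKM for the SALK line. For the other stock they summed to 1587950 and 1225160 FPKM. Over the 18432 annotated models among these, the sums were 1189880 and 984995 FPKM for the SALK line. They were 1230280 and 1132180 FPKM for the other stock. Most of the gap between replicates thus lay in models with no annotated transcript. The cause of this spread in the sums was not tested. Total reads are not in the table, and the depth is unknown. Whole seedlings hold many cell types, and in such samples fewer cells of a type and less RNA per cell cannot be told apart.

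WRKY factors bind a short element called the W-box, and FRK1 is widely used as a reporter of this pathway, so the 250 bases before the annotated gene start are shown for FRK1, for the co-receptor gene BAK1 and for FLS2. Sequences are RefSeq, build TAIR10.1, 5′ to 3′ on the strand of the gene, with W-boxes in capitals (TTGACC or TTGACT, searched on both strands).
FRK1 (chr2:8329945-8330194, minus strand): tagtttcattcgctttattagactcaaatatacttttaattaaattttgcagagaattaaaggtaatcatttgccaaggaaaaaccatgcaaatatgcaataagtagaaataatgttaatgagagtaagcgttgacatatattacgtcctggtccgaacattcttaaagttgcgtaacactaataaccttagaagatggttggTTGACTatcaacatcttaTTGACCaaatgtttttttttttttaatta
BAK1 (chr4:16090833-16091082, minus strand): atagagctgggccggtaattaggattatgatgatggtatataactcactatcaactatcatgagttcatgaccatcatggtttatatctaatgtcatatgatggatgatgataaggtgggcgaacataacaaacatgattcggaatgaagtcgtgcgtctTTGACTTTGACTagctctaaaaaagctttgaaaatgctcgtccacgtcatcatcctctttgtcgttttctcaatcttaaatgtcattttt
FLS2 (chr5:18791325-18791574, plus strand): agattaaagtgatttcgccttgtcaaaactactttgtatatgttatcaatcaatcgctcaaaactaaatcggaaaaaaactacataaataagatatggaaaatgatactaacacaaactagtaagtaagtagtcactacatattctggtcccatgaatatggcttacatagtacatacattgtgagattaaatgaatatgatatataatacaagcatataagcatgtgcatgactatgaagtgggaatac
FRK1 had 2 W-boxes, which began 47 and 29 bases before the gene start. BAK1 had 2 that lie end to end, 90 and 84 bases before it, and FLS2 had 0 in this window. At least 1 W-box was found before 7 of the 10 genes and at least 2 before 3 of them, while 28.4% and 6.18% of 27443 nuclear protein-coding genes had as many in a window of the same length. PEPR1 was the remaining gene with 2, at 192 and 110 bases, while CERK1, SOBIR1, BIK1 and RBOHD had 1 each, and EFR and LYK5 had 0. A match is a run of letters and does not show that a factor binds there.

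FLS2, the leucine-rich repeat receptor kinase for bacterial flagellin, had the smallest unadjusted p of the 9 members tested and is 1 of the 5 whose libraries were all higher in Another Col-0. Its model (AT5G46330, chromosome 5, 18791736 to 18795546, TAIR10) had 23.8 FPKM in replicate 1 and 19.7 FPKM in replicate 2 of SALK Col-0, against 36.7 and 31.8 FPKM in Another Col-0. The lower library of Another Col-0 lay above the higher library of SALK Col-0, and in each line replicate 1 was the higher library. The means were 21.7 ± 2.86 and 34.2 ± 3.48 FPKM (SD, n = 2), a ratio of 1.57, with 1.54 for the replicate 1 pair and 1.61 for the replicate 2 pair (a pair is the library of each line with the same replicate number). The log2 difference of 0.63 ± 0.141 (SE) did not pass over all 20634 models tested (limma, adjusted p = 0.233). Its unadjusted p was 0.0204 in the limma fit, where 10.2% of all models were on the higher side and 6.45% on the lower side with an unadjusted p under 0.05.

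EFR, the related receptor for bacterial elongation factor Tu, had the largest log2 difference of the 9 members tested and the largest standard error. The EFR model (AT5G20480, chromosome 5, 6921676 to 6925887) had 4.48 FPKM in replicate 1 and 1.69 FPKM in replicate 2 of SALK Col-0, against 11.9 and 2.71 FPKM in Another Col-0. Replicate 1 was 2.65 times replicate 2 in SALK Col-0 and 4.37 times that of Another Col-0, and the lines overlapped, since replicate 2 of Another Col-0 lay below replicate 1 of SALK Col-0. The means were 3.09 ± 1.97 and 7.29 ± 6.47 FPKM (SD, n = 2), and the log2 difference of 0.85 ± 0.845 did not pass (limma, adjusted p = 0.724). The deposited limits around the value of 11.9 FPKM ran from 0.134 to 57.9 FPKM. Without Another Col-0 replicate 1 the difference was -0.05.

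The EFR model shares its place with models of the opposite strand, and the library kit (TruSeq RNA V2) by its standard protocol does not record strand. A merged model of the myosin genes HDK and XIK (AT5G20470 and AT5G20490, chromosome 5, 6916260 to 6937829) spans all 4212 nt of the EFR model. In the RefSeq annotation of TAIR10.1 those genes lie on either side of EFR, with HDK ending at 6920120 and XIK starting at 6926516. That merged model had 21.1 and 21.0 FPKM in SALK Col-0 and 18.5 and 19.4 FPKM in Another Col-0. A short model with no annotated transcript (6921755 to 6922011) inside EFR was listed at 0 in replicate 1 of each line and at 8.54 and 8.57 FPKM in replicate 2 of SALK Col-0 and Another Col-0. The replicates in which this short model was listed at 0 are those in which EFR was high, and the part of these models in the EFR value was not tested.

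CERK1 and LYK5 are receptor kinases with lysin motifs that act together in chitin sensing, LYK5 as the main chitin-binding partner. CERK1 (AT3G21630, chromosome 3, 7615383 to 7618604) had 11.3 and 13.6 FPKM in SALK Col-0 and 12.4 and 15.3 FPKM in Another Col-0, in replicate order. Its lines overlapped, although each replicate pair had a positive log2 difference, 0.12 and 0.16. The difference over all 4 libraries was 0.14 ± 0.160 (limma, adjusted p = 0.773), and it was -0.001 without Another Col-0 replicate 2. LYK5 (AT2G33580, chromosome 2, 14219623 to 14221861) had 4.16 and 4.11 FPKM in SALK Col-0 and 4.69 and 4.56 FPKM in Another Col-0. The lines did not overlap, by a small margin, and the log2 difference was 0.13 ± 0.068 (limma, adjusted p = 0.459).

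PEPR1, the receptor for Pep peptides of the plant's own making, cannot be read apart from its neighbour. Its model (chromosome 1, 27483922 to 27490816) pools AT1G73080 with AT1G73090, which encodes a WD repeat protein and lies downstream on the same strand. The pooled model had 73.4 FPKM in replicate 1 and 27.9 FPKM in replicate 2 of SALK Col-0, against 29.5 and 31.5 FPKM in Another Col-0. The value of SALK Col-0 replicate 1 stood above the other 3 libraries, which lay between 27.9 and 31.5 FPKM, and its deposited limits ran from 12.3 to 94.8 FPKM. The log2 difference of -0.56 ± 0.559 did not pass (limma, adjusted p = 0.725). Without SALK Col-0 replicate 1 it was 0.12.

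The partner kinases BAK1, SOBIR1 and BIK1 had smaller log2 differences than FLS2, with the same sign in each pair. BAK1, the co-receptor that joins FLS2, EFR and PEPR1 (AT4G33430, chromosome 4, 16086311 to 16090777), had 29.5 and 36.0 FPKM in SALK Col-0 and 38.6 and 44.7 FPKM in Another Col-0. Every library of Another Col-0 was above those of SALK Col-0, and replicate 2 was the higher library in each line. The means were 32.8 ± 4.57 and 41.6 ± 4.32 FPKM (SD, n = 2), a ratio of 1.27, and the log2 difference of 0.34 ± 0.149 did not pass (limma, adjusted p = 0.396).

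SOBIR1, the adaptor kinase of receptor-like proteins that lack a kinase domain (AT2G31880, chromosome 2, 13554894 to 13556977), had 36.0 and 38.0 FPKM in SALK Col-0 and 40.8 and 44.0 FPKM in Another Col-0. The lines did not overlap, and the log2 difference was 0.19 ± 0.070 (limma, adjusted p = 0.337). Its last 478 nt lie under the model of RAP (AT2G31890) on the opposite strand. RAP had 25.4 and 28.2 FPKM in SALK Col-0 and 28.1 and 31.7 FPKM in Another Col-0, and its part in the SOBIR1 value was not tested.

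BIK1, the cytoplasmic kinase that BAK1 complexes phosphorylate and that acts on RBOHD (AT2G39660, chromosome 2, 16531688 to 16533931), had 18.2 and 17.4 FPKM in SALK Col-0 and 22.3 and 19.3 FPKM in Another Col-0. Its lines did not overlap, and the log2 difference was 0.21 ± 0.098 (limma, adjusted p = 0.422). RBOHD, the NADPH oxidase of the oxidative burst (AT5G47910, chromosome 5, 19397443 to 19402068), had 16.3 and 18.02 FPKM in SALK Col-0 and 16.2 and 16.1 FPKM in Another Col-0. Both libraries of Another Col-0 were below those of SALK Col-0, the nearest by 16.2 against 16.3 FPKM. The log2 difference of RBOHD was -0.08 ± 0.072 (limma, adjusted p = 0.673).

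FRK1, a receptor kinase gene known as an early transcriptional response to flagellin, was listed at the lowest level of the 10. Its model (AT2G19190, chromosome 2, 8325875 to 8329944) had 0.322 and 0.245 FPKM in SALK Col-0 and 0.691 and 0.617 FPKM in Another Col-0. The lines did not overlap, and the means of 0.283 ± 0.0545 and 0.654 ± 0.0519 FPKM (SD, n = 2) had a ratio of 2.31, with 2.15 and 2.52 in the replicate 1 and 2 pairs. The deposited lower limit was 0 in all 4 libraries and the upper limits reached 1.02 to 1.97 FPKM. With a mean under 1 FPKM it was not among the models tested. In the fit with no filter on low values, its log2 difference of 0.37 did not pass (limma, adjusted p = 0.16). The model overlaps by 91 nt that of AT2G19180 on the opposite strand, which had 36.7 and 39.5 FPKM in SALK Col-0 and 42.1 and 43.4 FPKM in Another Col-0, and the part of those reads in the FRK1 value was not tested.

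**Figure D1:**
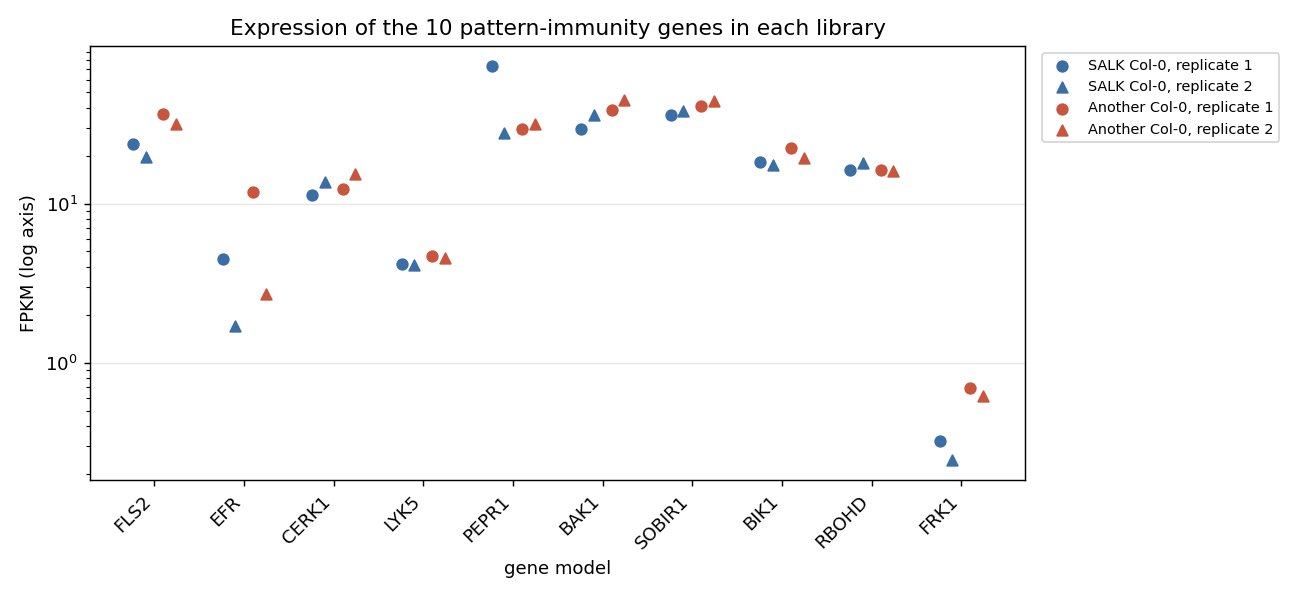
FPKM on a log axis of the 10 genes in each of the 4 libraries, coloured by line, with circles for replicate 1 and triangles for replicate 2. FLS2 and FRK1 show the lines apart, EFR differs more between replicates than BAK1 or SOBIR1 does, and the PEPR1 model has 1 library at 73.4 FPKM.

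Read as a group, 0 of the 9 members tested passed in either direction at the adjusted threshold of 0.05 (limma), where 0% of all 20634 models were called higher and 0% lower. Among annotated models alone 0 members passed as well, where 0.0543% were called higher and 0.00543% lower. When limma also fitted the replicate number, which the labels do not give as a pairing, FLS2 and BAK1 were called higher (adjusted p = 0.0337 and 0.0354) and 0 members lower. The shares of all models in that fit were 14.3% higher and 8.11% lower. With that term and annotated models alone 5 members were called higher, where the shares were 26.6% and 18.1%. Over all models without that term, the smallest adjusted p among the members was 0.233 (limma), for FLS2. In the same fit 1 member was on the higher side and 0 on the lower side at an unadjusted p under 0.05, beside 10.2% and 6.45% of all models. The libraries of Another Col-0 were all higher in 5 of the 9 (FLS2, LYK5, BAK1, SOBIR1 and BIK1) and all lower in 1 (RBOHD), beside 26.2% and 20.8% of all models tested. Of the 18432 annotated models tested, which are the nearer background for these genes, 5393 (29.3%) were all higher and 4284 all lower. With quantile normalization 3 members were all higher, since the libraries of LYK5 and BIK1 then overlapped, and the shares of all models were 18.8% higher and 19.2% lower. After median scaling 5 were all higher and 1 all lower, where the shares were 23.5% and 23%. A log2 difference above 0 was found in 7 of the 9, beside 54.1% of all models. At least 1.5-fold higher in both pairs were FLS2 and EFR, 2 of the 9, beside 3.25% of all models, and 0 were lower by as much, beside 2.18%. The 1.5-fold rule was chosen after the values were seen. The median log2 difference of the 9 was 0.19 (0.18 and 0.17 in the replicate 1 and 2 pairs), beside 0.02 over all models tested. The members' median was 0.12 without Another Col-0 replicate 1. The deposited limits of the lines overlapped in both pairs for each of the 10 genes.

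**Figure D2:**
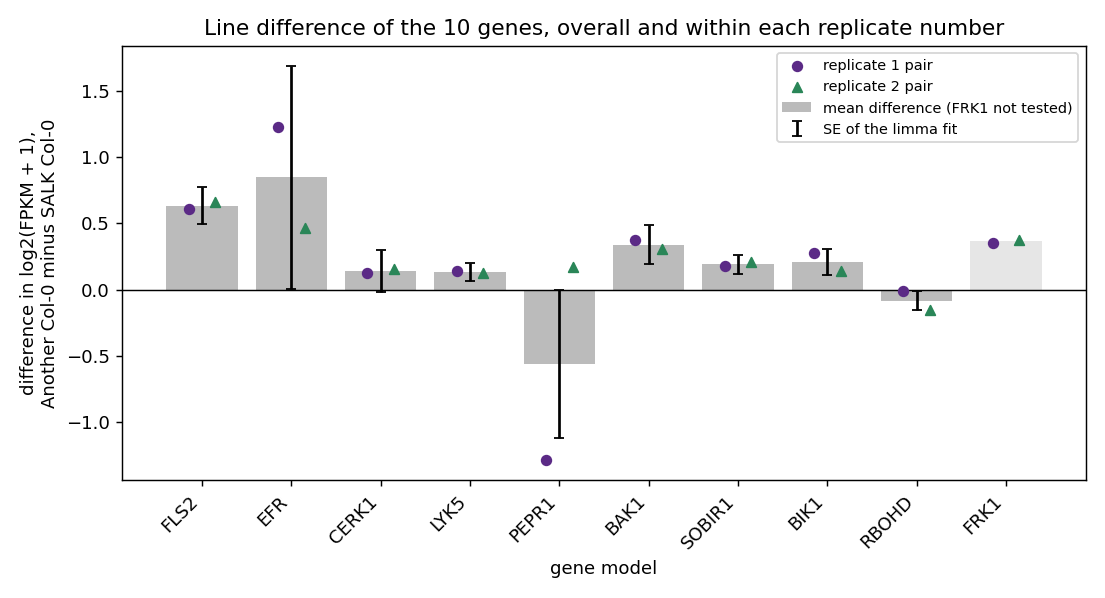
Difference in log2(FPKM + 1), Another Col-0 minus SALK Col-0, for the 10 genes: bars are means over the libraries, error bars the SE of the limma fit, and points the values within the replicate 1 and 2 pairs. FLS2 has 0.61 and 0.66 in its pairs, while for PEPR1 the pairs disagree, at -1.29 (replicate 1) and 0.17 (replicate 2).

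The order of levels was the same in each line apart from the place of PEPR1 and the exchange of EFR and LYK5. In SALK Col-0 the means ranked the pooled PEPR1 model (50.7 FPKM), SOBIR1 (37.0), BAK1 (32.8), FLS2 (21.7), BIK1 (17.8), RBOHD (17.2), CERK1 (12.47), LYK5 (4.14), EFR (3.09) and FRK1 (0.283). The first place of the PEPR1 model, which also holds AT1G73090, rests on replicate 1 (73.4 FPKM), since replicate 2 (27.9 FPKM) lay below SOBIR1 and BAK1, whose libraries its range covers. The libraries of BIK1 and RBOHD, and of LYK5 and EFR, also overlapped there. In Another Col-0 the order was SOBIR1 (42.4 FPKM), BAK1 (41.6), FLS2 (34.2), the PEPR1 model (30.5), BIK1 (20.8), RBOHD (16.1), CERK1 (13.8), EFR (7.29), LYK5 (4.63) and FRK1 (0.654). The libraries of SOBIR1 and BAK1, and of EFR and LYK5, overlapped in that line. SOBIR1 and BAK1 were listed at higher levels than the chitin receptors CERK1 and LYK5 in every library.

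Members also differed between replicate numbers, in the same direction in each line for most of them. Replicate 1 was above replicate 2 in each line for FLS2 (ratios of 1.20 and 1.15), EFR, LYK5, BIK1 and FRK1. It was below replicate 2 in each line for CERK1 (0.830 and 0.811), BAK1 (0.820 and 0.863) and SOBIR1 (0.949 and 0.928). For PEPR1 and RBOHD the replicates went opposite ways in the lines.

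Of the other receptors of the pathway, FER was the most abundant of those named here and RLK7 had a line ratio close to that of FLS2. Of 16 entries, 14 could be tested, 0 were called, and in 8 the libraries of Another Col-0 were all higher and in 2 all lower, beside 26.2% and 20.8% of all models. The median log2 difference was 0.22, beside 0.02 over all models, and it was 0.12 with no filter on low values, 0.14 at a mean of at least 5 FPKM, 0.14 after quantile normalization and 0.34 without Another Col-0 replicate 2. RLK7 (AT1G09970), a leucine-rich repeat receptor kinase that senses secreted immune peptides, had 58.9 and 52.7 FPKM in SALK Col-0 and 88.8 and 79.9 FPKM in Another Col-0, a ratio of 1.51. WAK1, a wall-associated kinase that binds pectin fragments, had 1.42 and 1.498 FPKM against 3.06 and 3.10 FPKM, in a model that also holds AT1G21230. FER (AT3G51550), the receptor of RALF peptides, had 122.3 and 120.3 FPKM against 150.9 and 148.1 FPKM. The model of the receptor-like protein RLP1, which also holds AT1G07400, had 3.89 and 3.93 FPKM against 5.77 and 5.83 FPKM. Their adjusted p-values lay between 0.202 and 0.211 (limma). PEPR2, the close relative of PEPR1, named outside the naming rule, was not tested, at 0.576 and 0.526 FPKM against 0.457 and 0.406 FPKM.

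Co-receptors went both ways, while the BIR kinases that restrain them, BIR1, BIR2 and AT1G27190, were higher without overlap. For AT1G27190 the log2 difference was only 0.09. Of 7 models tested (SERK4 and SERK5 share 1), 0 were called, 4 were higher and 1 lower without overlap (26.2% and 20.8% of all models), and the median was 0.18, or 0.08 without SALK Col-0 replicate 2. IOS1 (AT1G51800), a malectin-like receptor kinase that associates with FLS2 and BAK1, had 2.81 and 2.56 FPKM in SALK Col-0 and 5.99 and 5.55 FPKM in Another Col-0, and its log2 difference was 0.88 ± 0.089 (limma, adjusted p = 0.199). BIR1 (AT5G48380), which holds SOBIR1-dependent responses in check, had 36.6 and 33.2 FPKM against 49.97 and 45.6 FPKM. BIR2 (AT3G28450), an inhibitor of BAK1, had 10.6 and 9.24 FPKM against 11.4 and 11.2 FPKM. SERK1 (AT1G71830), a relative of BAK1 that acts in development, lay the other way, at 7.66 and 6.99 FPKM against 5.25 and 5.49 FPKM. The SERK4 and SERK5 model had 47.1 and 14.7 FPKM in SALK Col-0 and 66.1 and 18.9 FPKM in Another Col-0, so that, as for EFR, replicates differed more than lines.

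Among 14 relatives of BIK1 and other cytoplasmic kinases tested, 0 were called, 2 were higher and 2 lower without overlap, where the shares of all models were 26.2% and 20.8%. The median was 0.16, and it was 0.08 after quantile normalization, 0.04 without SALK Col-0 replicate 2 and 0.03 when replicate 1 of Another Col-0 was left out. PBL2 (AT1G14370) had 11.8 and 12.2 FPKM in SALK Col-0 and 14.4 and 14.7 FPKM in Another Col-0, and APK1A (AT1G07570) had 14.6 and 13.9 FPKM against 19.4 and 17.5 FPKM. PBL1 (AT3G55450), the closest relative of BIK1, had 44.98 and 45.7 FPKM against 42.5 and 43.0 FPKM. The kinase gene AT1G76360 had 20.2 and 24.3 FPKM against 15.1 and 18.2 FPKM.

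Of 14 negative regulators and G protein genes, all 14 could be tested, 0 were called, 9 were higher and 0 lower without overlap (26.2% and 20.8% of all models), and the median was 0.15. The ubiquitin ligase genes PUB22 (AT3G52450) and PUB23 (AT2G35930), which dampen responses to flagellin, belonged to the 9. PUB23 had 6.04 and 6.26 FPKM in SALK Col-0 and 9.59 and 10.3 FPKM in Another Col-0, a ratio of 1.62 (limma, adjusted p = 0.199). PUB22 had 4.59 and 4.27 FPKM against 6.28 and 5.61 FPKM. The protein phosphatase gene AT3G12620 had 17.1 and 18.7 FPKM against 21.7 and 24.3 FPKM. The G protein gamma subunit gene AGG2, in a model with AT3G22945, had 7.19 and 5.33 FPKM against 10.51 and 15.7 FPKM, with the replicates in opposite order.

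Partners of RBOHD and calcium signalling genes were split. Of 10 tested, 0 were called, 5 were higher and 4 lower without overlap (26.2% and 20.8% of all models). The median was 0.06, and it was 0.04 after median scaling, 0.02 without SALK Col-0 replicate 2 and 0.03 when replicate 1 of Another Col-0 was left out. The calcium-dependent kinase gene CPK11 (AT1G35670) had 18.9 and 17.4 FPKM in SALK Col-0 and 25.5 and 26.4 FPKM in Another Col-0. CPK5 (AT4G35310), which encodes a kinase that phosphorylates RBOHD, had 59.1 and 62.6 FPKM against 70.6 and 79.95 FPKM, and CPK4 (AT4G09570) had 17.9 and 17.6 FPKM against 19.99 and 22.1 FPKM. The channel gene CNGC4 (AT5G54250) lay the other way, at 14.0 and 14.96 FPKM against 12.3 and 12.9 FPKM.

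In the MAP kinase cascade 13 of 14 entries were tested, 0 were called, 5 were higher and 0 lower without overlap (26.2% and 20.8% of all models), and the median was 0.14. MKK4 (AT1G51660), whose product activates MPK3 and MPK6, had 5.45 and 4.65 FPKM in SALK Col-0 and 7.39 and 6.43 FPKM in Another Col-0. MKK1 (AT4G26070) had 12.6 and 13.1 FPKM against 14.5 and 15.01 FPKM, and MPK4 (AT4G01370), which acts below it, had 36.2 and 37.5 FPKM against 41.6 and 42.1 FPKM. MKS1 (AT3G18690), a substrate of MPK4, had 8.34 and 10.03 FPKM against 11.02 and 12.3 FPKM.

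Of 11 genes for endogenous peptides and their processing, 7 were tested, 0 were called, 3 were higher and 2 lower without overlap (26.2% and 20.8% of all models). The median was 0.19, and it was 0.10 without SALK Col-0 replicate 2, 0.05 and 0.32 when replicate 1 or replicate 2 of Another Col-0 was left out, and 0.295 at a mean of at least 5 FPKM. MC4 (AT1G79340), a metacaspase that releases Pep peptides, had 95.8 and 89.1 FPKM in SALK Col-0 and 115.6 and 111.6 FPKM in Another Col-0. RALF23 (AT3G16570), a peptide ligand of FER, had 145.1 and 206.3 FPKM against 231.2 and 280.3 FPKM. PROPEP5 (AT5G09990), a Pep precursor, had 2.82 and 1.68 FPKM against 4.64 and 3.05 FPKM, and PEP7 (AT5G09978) had 4.08 and 3.33 FPKM against 2.83 and 3.28 FPKM. The 4 entries not tested, PROPEP2, PROPEP3, AT4G28460 and AT4G37290, averaged under 1 FPKM.

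**Figure D3:**
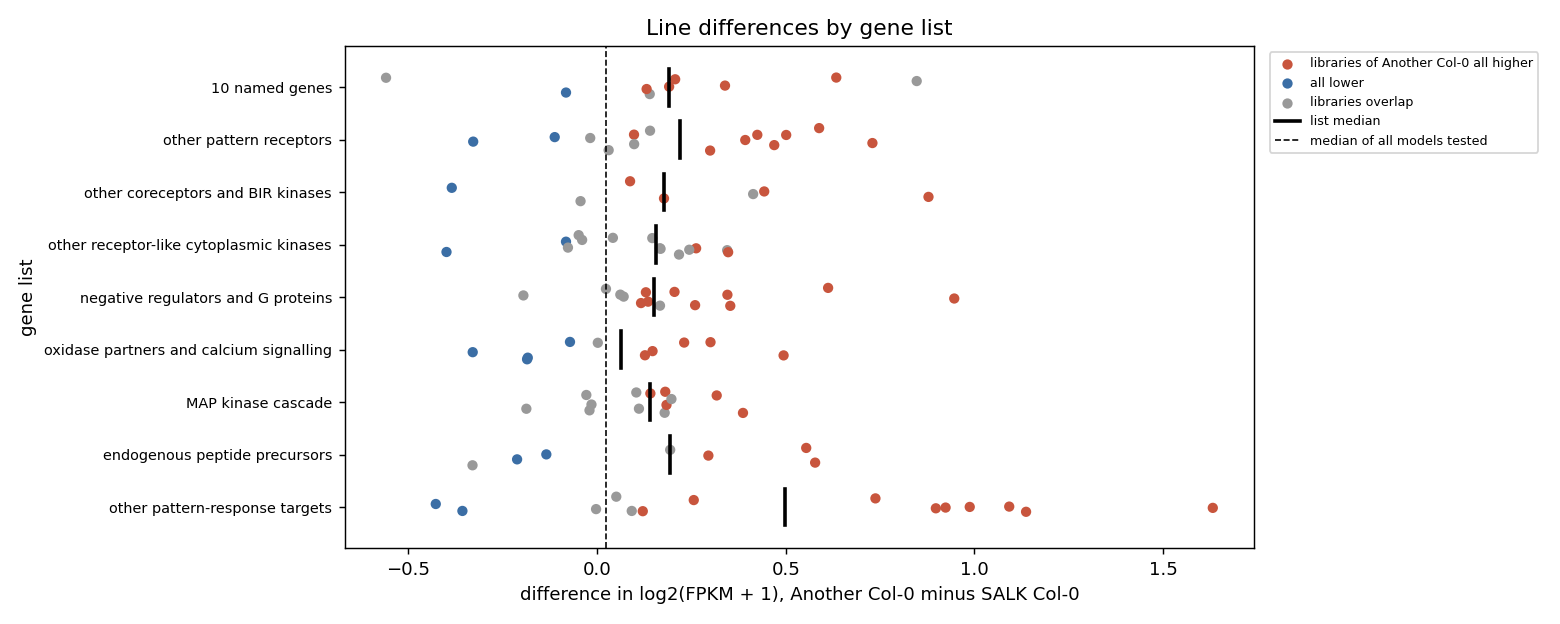
Difference in log2(FPKM + 1), Another Col-0 minus SALK Col-0, of each model tested (points), by gene list, with list medians as black bars and the median of all models tested as a dashed line. Points are coloured by whether the libraries of the lines overlap. The list medians lie between 0.06 and 0.50, beside 0.02 for all models, and the 0.50 of the response targets is 0.13 with no filter on low values and 0.12 at a mean of at least 5 FPKM.

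The response genes that share the role of FRK1 were widely spread, and their median depended on the filter on low values. Of 18 entries 14 were tested, 0 were called, 9 were higher and 2 lower without overlap, beside 26.2% and 20.8% of all models. The list's median was 0.50, with pair medians of 0.49 and 0.50, but it was 0.13 with no filter and 0.12 at a mean of at least 5 FPKM. At least 1.5-fold higher in both pairs, a rule chosen after the values were seen, were 7 of the 14 (3.25% of all models), and 0 were lower by as much (2.18%). The peroxidase gene AT5G39580 had 43.5 and 49.7 FPKM in SALK Col-0 and 138.2 and 154.9 FPKM in Another Col-0, a ratio of 3.14 and a log2 difference of 1.63 ± 0.112 (limma, adjusted p = 0.199). The flotillin model of AT5G25250 and AT5G25260, FLOT1, had 1.58 and 1.48 FPKM against 4.23 and 4.57 FPKM, a ratio of 2.87. MLO12 (AT2G39200), of the MLO membrane protein family, had 4.09 and 4.42 FPKM against 9.29 and 9.56 FPKM. CYP81F2 (AT5G57220), an indole glucosinolate hydroxylase, had 10.99 and 10.3 FPKM against 25.4 and 23.8 FPKM.

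Not all response genes lay that way. The 2 lower without overlap, chosen for mention after their values were seen, were WRKY33 (AT2G38470), at 89.2 and 96.4 FPKM in SALK Col-0 and 66.1 and 71.4 FPKM in Another Col-0, and WRKY17 (AT2G24570), at 15.9 and 14.9 FPKM against 11.95 and 11.7 FPKM. Of the 18 genes, whichever way they lay, 12 had at least 1 W-box in the 250 bases before their start and 7 at least 2. The shares over 27443 nuclear protein-coding genes were 28.4% and 6.18%. The 4 not tested averaged under 1 FPKM, among them NHL10, another widely used marker of the pathway, at 0.783 and 0.893 FPKM against 0.663 and 0.839 FPKM.

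**Figure D4:**
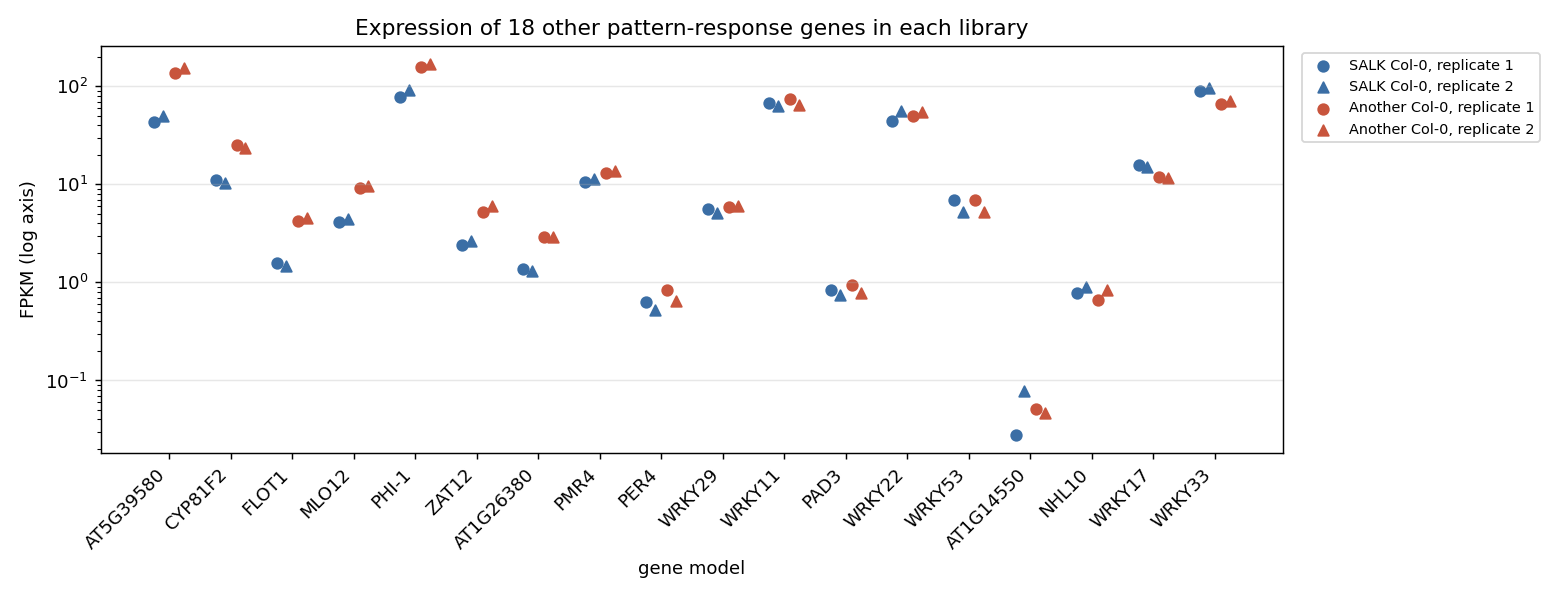
FPKM on a log axis of 18 other pattern-response genes in each of the 4 libraries, coloured by line and ordered by line difference from highest to lowest. AT5G39580 stands above 138 FPKM in both libraries of Another Col-0, and WRKY33, at the other end, lies lower in Another Col-0.

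Over all of these lists without the members, 93 models were tested and 0 were called (limma). At an unadjusted limma p under 0.05, 28 were on the higher and 3 on the lower side, beside 10.2% and 6.45% of all models. In 45 the libraries of Another Col-0 were all higher and in 13 all lower, beside the 26.2% and 20.8% given above. Of the 18432 annotated models tested, 5393 (29.3%) were all higher and 4284 all lower. When the replicate number was also fitted, limma called 31 of the 93 higher and 6 lower, where 14.3% and 8.11% of all models were called. The lists hold genes that earlier results on these libraries had shown to differ, so they are no independent evidence of a direction.

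Markers of salicylic acid signalling, of organs and of guard cells were set beside these values. The salicylic acid marker PR1 was listed at 0.102 and 0.136 FPKM in SALK Col-0 and 0.189 and 0.314 FPKM in Another Col-0. PR2 had 0.197 and 0.232 FPKM against 0.687 and 0.669 FPKM, and like PR1 it averaged under 1 FPKM and was not tested. PR5 had 4.38 and 5.26 FPKM against 6.29 and 6.84 FPKM, and ICS1, the synthesis gene, had 6.08 and 5.78 FPKM against 6.52 and 6.46 FPKM. Guard cell markers (MYB60, KAT1 and FAMA) overlapped between the lines in 3 of 3, where 26.2% of all models tested were higher and 20.8% lower without overlap. Their sums were 48.4 to 53.4 FPKM in SALK Col-0 and 47.1 to 48.0 FPKM in Another Col-0.

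Of 7 root markers, 6 were tested and 2 were higher and 2 lower without overlap, beside 26.2% and 20.8% of all models tested. Those shares also stand beside the leaf, flower and seed counts that follow. The root sums were 1339 to 1345 FPKM in SALK Col-0 and 1411 to 1413 FPKM in Another Col-0. Nearly all of each sum was PYK10 (1299 and 1289 against 1364 and 1366 FPKM). PYK10 and TIP2;3 were the 2 higher, and IRT1 and PER64 the 2 lower. Leaf markers were the most abundant, with sums of 10056 to 10643 FPKM in SALK Col-0 and 11697 to 12093 FPKM in Another Col-0. Of the 3 tested 1 was higher without overlap, RBCS1A (in a bundle of 96 models), at 6626 and 6665 FPKM against 8586 and 7825 FPKM. RBCS3B and RCA overlapped between the lines. The 5 flower markers summed to 15.4 to 20.7 FPKM in SALK Col-0 and 39.1 to 46.0 FPKM in Another Col-0, and the 2 tested, PI and SEP3, did not overlap. Of the flower markers AP1, AP3 and AG averaged under 1 FPKM. The 4 seed markers summed to 7.24 to 7.61 FPKM in SALK Col-0 and 2.45 to 2.63 FPKM in Another Col-0. Most of each sum was CRA1, the 1 tested, which was lower without overlap. The 3 not tested averaged under 1 FPKM. Of these OLEO1 was lower (0.187 and 0.239 against 0.094 and 0.0964 FPKM). CRU3 (0.138 and 0.138 against 0.210 and 0.208 FPKM) and AT2S1 (0 and 0 against 0.0446 and 0.106 FPKM) lay the other way. The part of organ makeup in the differences of the pattern-immunity genes was not tested.

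Likeness of pattern was measured as the root mean square distance between log2(FPKM + 1) values, each centred on its mean over the 4 libraries, over annotated models that passed the same filter on low values. Closest to EFR, the member with the largest difference, were AT4G17960 (0.140), AT4G13320 (0.144) and the model of CRK28, CRK29 and AT4G21420 (0.179). AT4G17960 had 13.8 and 8.05 FPKM in SALK Col-0 and 32.7 and 10.02 FPKM in Another Col-0. It was picked for its closeness to EFR over these same libraries, so the likeness is no separate result. Closest to FLS2, chosen after its values were seen, were AT1G35320 (0.0161), CP1 (AT5G49480, 0.0179) and TCH2 (AT5G37770, 0.0209). TCH2 had 95.4 and 76.7 FPKM in SALK Col-0 and 144.3 and 123.6 FPKM in Another Col-0.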

How the data were processed

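Whole seedlings of 2 lines were sequenced, with 2 biological replicates of each. Whether replicates were grown apart is not in the labels, so p-values measure the spread of these 4 libraries, which may be technical. A single deposited table holds FPKM values, which the authors scaled to transcript length and to mapped fragments, with a lower and an upper limit per value, per the file headers. The submitters' processing notes list TopHat, Cufflinks, Cuffdiff and TAIR10, and their roles and versions are not given in the sources used here. Of 36251 models, 19 were left out because a value was marked as failed or as too deep, and models with a mean under 1 FPKM over the 4 libraries were not tested.

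The test was limma 3.58.1 (R 4.3.3) on log2(FPKM + 1), with the line as its only term, a mean-variance trend, a two-sided p and Benjamini-Hochberg adjustment over all models tested, at a threshold of 0.05. It had 2 residual degrees of freedom. The smallest two-sided p of an exact permutation test here is 0.333. Differences are signed so that a positive value is higher in Another Col-0. Total reads per library are not in the table, so the counting error is unknown.

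The 10 genes and the other gene lists were chosen with earlier results of these data known. The genes named were all 10, up to 4 models with the smallest p in each other list, and the models most like the gene with the largest difference. Outside that rule, PEPR2, the SERK4 and SERK5 model, AT1G27190, WRKY33, WRKY17, NHL10, PROPEP2, PROPEP3, AT4G28460, AT4G37290, MPK11, PR2, the models most like FLS2, the overlapping neighbours and some organ markers were named after their values were seen. The alternatives covered the pseudocount, the filter, scaling, the variance trend, a term for the replicate number, annotated models alone, a threshold of 0.10 and each library left out. Gene names came from a RefSeq table of TAIR10.1, and a gene that it does not name is given by its identifier. Upstream sequences were read from TAIR10.1, where 24407 of 24407 single-gene models compared overlapped the gene of the same identifier.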

Additional observations from a re-analysis of the deposited data

How the results depend on the processing

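With the replicate number as a term (replicate block), which the labels give as a number that both lines share and not as a stated pairing, 2951 models were higher and 1673 lower over all models, and 4896 and 3335 among annotated models alone. The deviations of the libraries numbered 1 from their line means had a correlation of 0.953 across 20634 models, which are not independent. Those models include some with no annotated transcript, and the correlation over the 18432 annotated models alone was not computed. In that fit 2 members were called higher, FLS2 (0.63, limma, adjusted p = 0.0337) and BAK1 (0.34, adjusted p = 0.0354). Among annotated models alone with the block 5 were: FLS2 (adjusted p = 0.00555), BAK1 (0.0102), SOBIR1 (0.19, 0.0251), EFR (0.85, 0.0347) and BIK1 (0.21, 0.04). The block called 31 models of the other pathway lists higher and 6 lower, and 42 and 10 among annotated models alone. These members' shares stand beside 14.3% and 26.6% of all models called higher. Annotated models alone without the block gave 10 higher and 1 lower, and 0 members.

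Without any single library 0 models were called, and the members' median lay between 0.12 and 0.23. It was 0.20 with a pseudocount of 0.1, 0.20 at a mean of at least 5 FPKM, 0.17 after median scaling and 0.14 after quantile normalization, where 3 members were higher without overlap. Leaving out a library turned the sign of EFR (-0.0492 to 1.74), CERK1 (-0.001 to 0.28) and PEPR1 (-1.24 to 0.12). The range was 0.51 to 0.76 for FLS2, 0.20 to 0.48 for BAK1 and 0.32 to 0.41 for FRK1, whose difference was 0.98 with a pseudocount of 0.1. The cause of these changes was not tested.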

Other observations

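The chlorophyll-binding protein gene CAB1 (AT1G29930), named in the leaf marker list, was listed at 0 FPKM in all 4 libraries, while RCA, another leaf gene, had 1479 and 1411 FPKM in SALK Col-0 and 1418 and 1339 FPKM in Another Col-0. The leaf sums include CAB1 at 0, and whether that value is the level of the gene was not tested. MPK11, a MAP kinase gene of the same pathway that was below the filter on low values, had 0.581 and 0.542 FPKM in SALK Col-0 and 1.35 and 1.44 FPKM in Another Col-0.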
